A study of Homo sapiens with 6 samples.

Results

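Ku is a ring-shaped heterodimer of a larger subunit, encoded by XRCC5, and a smaller one, encoded by XRCC6, that slides onto DNA ends. It starts non-homologous end joining, the pathway that rejoins double-strand breaks by ligation, and recruits the kinase and ligase complexes that finish the repair. APLF and CYREN bind Ku through short peptide motifs. APLF also binds poly(ADP-ribose) and helps to hold the XRCC4 and LIG4 ligase complex at breaks, and CYREN has been described both as an inhibitor of end joining and as a factor that promotes it. In human cells complete loss of Ku has been described as lethal, with loss of telomere DNA.

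These 4 genes, Xrcc5, Xrcc6, Aplf and Cyren, were followed among the 459 genes of a dual-guide CRISPR screen, by taking each guide pair in which either guide carried one of the 4 names. The symbols are written in mouse style in the tables, although the cells are human. Of 863546 guide pairs, 14757 held a guide of at least 1 of the genes, and 64 held 2 such guides (48 with guides of 2 different genes and 16 with 2 guides of 1 gene). Those 64 were kept apart. Each gene had 4 guides, with guides 1 and 2 at position 1 of the construct and guides 3 and 4 at position 2. Guide sequences were not used here, so the cut sites cannot be placed within the genes. In the RefSeq annotation of GRCh38.p14 the protein-coding gene XRCC5 lies at chr2:216109348-216206293, XRCC6 at chr22:41621295-41664041, APLF at chr2:68467585-68580162 and CYREN at chr7:135092303-135172469.

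Each construct was read from genomic DNA by PCR and sequencing, and its reads are taken to follow the number of cells with that guide pair. Irradiated cells were collected on day 15 after 10 population doublings, with 0.6 Gy of X-rays given the day after each split. Unirradiated cells were collected on day 14 after 12 doublings of standard growth, and day 0 cells at the start. There were 2 libraries in each of these 3 groups. All were eHAP cells, a human line that descends from HAP1, a leukemia line with a nearly haploid genome, and of 1 clone (iCas9-cl#6) that is p53 null and makes Cas9 under doxycycline. The labels name 2 different lethal-dose levels for the irradiation, and nothing in them says whether replicates were separate cultures, so p-values measure only the spread between these libraries.

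The libraries held between 61185707 and 86587125 reads. Of the 14757 guide pairs of the 4 genes, 47.9% had no read in irradiated replicate 2 and 52.8% in day 14 replicate 1, against 1.69 to 7.29% in the other 4 libraries. Xrcc5 had the largest shares of constructs without reads among the 4 genes, 54.9% in irradiated replicate 2 and 59.5% in day 14 replicate 1. Values without both of those libraries are given for the genes, the guides that moved most and the gene pairs named. Read counts of a construct are only an estimate of how many cells carried it, since reads without molecular identifiers are not independent molecules. They do not show whether the gene was cut or its protein lost.

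The first comparison asked whether loss of 1 of the 4 genes alone changed the abundance of cells. None of the 4 single knockouts passed the test in any of 3 comparisons, and their log2 changes relative to non-targeting constructs ran from -0.36 to 0.51. Single knockouts were read from the 120 to 122 constructs per gene that paired a guide of the gene with a non-targeting guide. Their counts were summed and are given as reads per 1000 reads of constructs with 2 non-targeting guides in the same library. Of those 878 constructs, 66.6% had no read in irradiated replicate 2 and 69.7% in day 14 replicate 1. The other libraries had 3.08 to 16.1% without reads. A gene was called changed when the Benjamini-Hochberg adjusted p of edgeR's quasi-likelihood test over all 459 genes was below 0.05. Of all genes, 0% were called for irradiated day 15 against day 14, 0% for irradiated day 15 against day 0 and 0% for day 14 against day 0, and so 0 of the 4.

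Xrcc5 constructs stood at 209.5 and 189.3 reads per 1000 in the irradiated libraries, at 224.8 and 201.2 in the day 14 libraries, and at 206.5 and 208.1 in the day 0 libraries. The 3 groups overlapped. The log2 change was -0.06 for irradiated cells against day 0 (95% interval -0.40 to 0.29) and 0.04 for day 14 against day 0 (-0.31 to 0.38). In linear terms the interval for irradiated cells runs from 0.757 to 1.22 times the day 0 level. A fall of the sum below 0.757 lies outside it, but most of the sum is guide 1. That guide had 156.3 and 135.5 of the reads per 1000 in the irradiated libraries. The log2 ratios of the irradiated to the day 0 means were -0.04, 0.27, 0.24 and -1.09 for guides 1 to 4. Guide 4 had 16.0 and 3.72 in the irradiated libraries, against 22.6 and 19.5 on day 0. Between irradiated and day 14 cells the change of the Xrcc5 sum was -0.10 (-0.44 to 0.25).

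Xrcc6 had the widest range over the 6 libraries of the 4 genes. Its constructs had 188.3 and 188.3 reads per 1000 in the irradiated libraries, 294.8 and 189.5 in the day 14 libraries, and 152.4 and 187.2 in the day 0 libraries. Both day 14 values were above both day 0 values, as they were for 18.3% of the 459 genes, but 1 of them, replicate 1, lay far above all other libraries. The log2 change of day 14 against day 0 was 0.51 (SE 0.20, interval 0.10 to 0.93), with an edgeR adjusted p of 0.817, and 453 of the 459 genes had a lower value. The change of irradiated cells against day 0 was 0.15 (-0.27 to 0.56), and that of irradiated cells against day 14 was -0.36 (-0.78 to 0.05). Without day 14 replicate 1 the day 14 change was 0.16, and without day 14 replicate 2 it was 0.80, which is past the threshold (edgeR adjusted p 0.0247), as were 21 of the 459 genes (4.58%). Day 14 is then 1 library, and its spread is taken from the other groups. Without day 0 replicate 1 the day 14 change was 0.37. With all 6 libraries scaled by their total reads in place of non-targeting constructs it was 0.40. In day 14 replicate 1, 76 of the 122 Xrcc6 constructs had no read, against 13 in day 14 replicate 2, and the largest construct held 10.9% of the sum, against 4.84%.

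Aplf had 158.0 and 160.0 reads per 1000 in the irradiated libraries, 163.5 and 154.1 in the day 14 libraries, and 169.8 and 148.6 in the day 0 libraries. The day 0 values enclosed all the others. Its log2 change was -0.00 against day 0 both for irradiated cells (interval -0.38 to 0.37) and for day 14 (-0.38 to 0.37).

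For Cyren all values after growth lay below its day 0 values, an order found in 6.32% of the 459 genes and in none of the other 3. It had 171.6 and 155.2 reads per 1000 in the irradiated libraries, 167.8 and 163.5 in the day 14 libraries, and 190.2 and 188.7 in the day 0 libraries. The log2 change was -0.21 for irradiated cells against day 0 (interval -0.58 to 0.15, edgeR adjusted p 0.974) and -0.19 for day 14 against day 0 (-0.56 to 0.17, adjusted p 0.817). Of the 459 genes, 54 had a lower value than Cyren in the first of these comparisons and 47 in the second. These values differed between its guides. At day 14, guide 2 had 17.4 and 34.1 reads per 1000 against 36.8 and 50.3 on day 0, and guide 1 had 48.8 and 47.3 against 41.5 and 51.4. The log2 ratios of the day 14 to the day 0 means were 0.05, -0.76, -0.08 and -0.21 for guides 1 to 4. Summed over all its partners, guide 2 had a log2 change of -0.01 at day 14 (interval -0.23 to 0.21). Between irradiated and day 14 cells the change was -0.02 for Cyren (-0.38 to 0.34) and 0.00 for Aplf (-0.38 to 0.38). With irradiated replicate 2 and day 14 replicate 1 both left out, the changes of irradiated cells against day 0 were 0.02 for Xrcc5, 0.15 for Xrcc6, -0.01 for Aplf and -0.14 for Cyren.

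**Figure D1:**
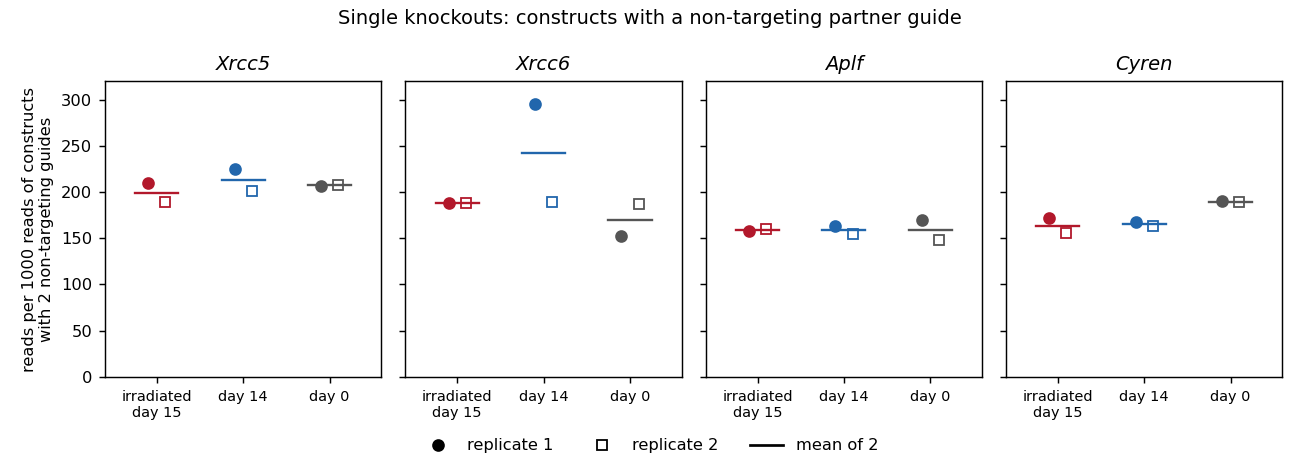
Reads of single-knockout constructs per 1000 reads of constructs with 2 non-targeting guides (linear axis from 0) for the 4 genes in the irradiated day 15, day 14 and day 0 libraries. Filled circles are replicate 1, open squares replicate 2 and lines the mean of 2; 1 point, Xrcc6 in day 14 replicate 1 at 294.8, lies above all others, and the Cyren points of irradiated and day 14 cells lie below its day 0 points.

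Guides of the 4 genes were also summed over all constructs in which the partner was a guide of another gene, which gives at least 3521 constructs per gene and a much smaller error. Here too 0% of the 459 genes were called for irradiated cells against day 14, 0% for irradiated cells against day 0 and 0% for day 14 against day 0. These sums are given in CPM, that is scaled to the same total in each library, with edgeR's TMM factors, which are a trimmed mean of log ratios. Xrcc5 had 2285 and 2242 in the irradiated libraries, 2168 and 2311 in the day 14 libraries, and 2257 and 2283 in the day 0 libraries. Its log2 change was -0.00 for irradiated cells against day 0 (interval -0.12 to 0.11) and -0.02 for day 14 against day 0 (-0.13 to 0.10). In linear terms the 95% interval for Xrcc5 after irradiation runs from 0.921 to 1.08 times its day 0 level, summed over partner knockouts. Without irradiated replicate 2 and day 14 replicate 1, the change against day 0 in irradiated cells was 0.01 for Xrcc5, 0.21 for Xrcc6, -0.08 for Aplf and -0.04 for Cyren.

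Aplf and Cyren were slightly lower than on day 0 in most library comparisons, within the error of the test. Aplf had 2010 and 2046 CPM in the irradiated libraries, 2036 and 2023 in the day 14 libraries, and 2204 and 2036 in the day 0 libraries, a log2 change of -0.06 in irradiated cells against day 0 (-0.19 to 0.06). Cyren had 2173 and 2126 in the irradiated libraries, 2094 and 2176 in the day 14 libraries, and 2311 and 2165 in the day 0 libraries, also a change of -0.06 (-0.18 to 0.07). For each gene the high value was that of day 0 replicate 1. Without that library the change of irradiated cells was -0.01 for Aplf and -0.01 for Cyren.

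Summed over partners, Xrcc6 had the largest changes of the 4 genes against day 0. It had 2528 and 2731 CPM in the irradiated libraries, 2643 and 2528 in the day 14 libraries, and 1863 and 2519 in the day 0 libraries. The 2 day 0 libraries differed more from each other than any of the later libraries did from day 0 replicate 2. The log2 change was 0.26 in irradiated cells against day 0 (interval -0.08 to 0.60, edgeR adjusted p 0.625) and 0.24 at day 14 against day 0 (-0.10 to 0.58, adjusted p 0.555). Without day 0 replicate 1 these changes were 0.06 and 0.04. Without day 0 replicate 2 they were 0.50 and 0.47 and passed the threshold (edgeR adjusted p 0.000212 and 0.000301), as did 158 and 161 of the 459 genes in the same fits. Between irradiated and day 14 cells the change was 0.02 (-0.32 to 0.36).

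The Xrcc6 sum of day 0 replicate 1 was low in the guides at position 2 of the construct. Guides 3 and 4 of Xrcc6 had 740 and 1156 CPM in that library and 1213 and 1883 in day 0 replicate 2, log2 ratios of -0.71 and -0.70. Its guides 1 and 2, at position 1, had 1347 and 384 in day 0 replicate 1 and 1415 and 391 in replicate 2, ratios of -0.07 and -0.03. The same ratio over all 927 position 2 guides with enough reads fell into separate sets. In 264 of them, 253 guides of genes and 11 non-targeting guides, it lay between -0.94 and -0.53. In the other 663 it lay between -0.20 and 0.38, with no guide in between. The sets followed genes: of the genes with 2 measured position 2 guides, 122 had both in the low set, 0 had 1 of the 2, and 310 had none. Xrcc6 was the only one of the 4 genes in the low set, and the position 2 guides of Xrcc5, Aplf and Cyren had ratios of 0.12 to 0.19. The median was 0.12 over the other 663 position 2 guides and -0.00 over position 1 guides. Position 2 guides of Xrcc5, Aplf and Cyren thus also differed between the day 0 libraries, with the higher value in replicate 1. Their changes against day 0 include that value. The ratio is between 2 libraries of the same day, and what set the low guides apart was not tested.

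**Figure D2:**
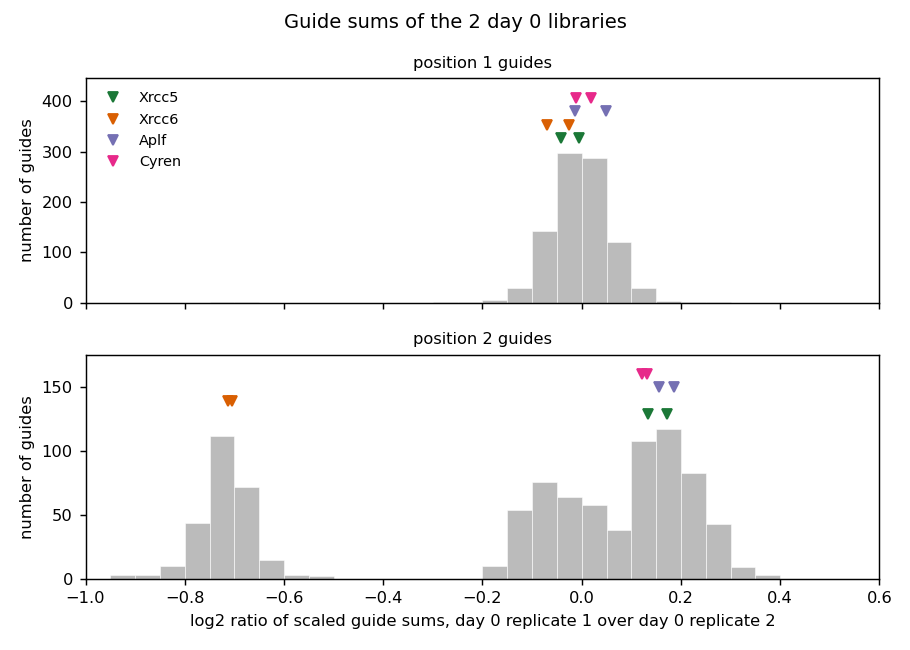
Number of guides (vertical axis) by the log2 ratio of a guide's scaled sum in day 0 replicate 1 over day 0 replicate 2 (horizontal axis, bins of equal width), for position 1 guides above and position 2 guides below. Triangles mark the guides of the 4 genes; both Xrcc6 guides of position 2 lie in the separate set near -0.71, and all other marked guides lie between -0.07 and 0.19.

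Read by single guides, the 4 genes gave 16 values per comparison, and none passed the threshold. Over the 1849 guides tested, 0.0541% were called for irradiated cells against day 14, 0% for irradiated cells against day 0 and 0% at day 14 against day 0. The 1 guide called, Cebpg_sg1, is of another gene and is named only because it is the single call. Within a gene the guides differed widely in how common they were. On day 0 the mean ran from 196 CPM for guide 3 of Xrcc5 to 2964 for its guide 1, a ratio of 15.1, and the ratio between the most and least common guide was 3.92 for Xrcc6, 2.93 for Aplf and 2.52 for Cyren. The sum for Xrcc5 is therefore mostly that of its guide 1.

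That guide, Xrcc5_sg1, had 2977 and 2911 CPM in the irradiated libraries, 2908 and 3066 in the day 14 libraries, and 2959 and 2969 in the day 0 libraries. Its log2 change was -0.01 in irradiated cells against day 0 (interval -0.12 to 0.11) and 0.01 at day 14 (-0.10 to 0.13). The other 3 guides of Xrcc5 all had changes below 0 at day 14, the lowest -0.38 for guide 3 (-1.05 to 0.29). Guide 3 had 183 and 153 CPM in the irradiated libraries, 111 and 190 in the day 14 libraries, and 208 and 184 in the day 0 libraries, so the low value is that of 1 library with many constructs unread, and without both incomplete libraries its day 14 change was -0.05. Guide 4, with 586 and 560 in the irradiated libraries, 549 and 572 in the day 14 libraries and 639 and 582 in the day 0 libraries, had a log2 change of -0.09 in irradiated cells (-0.29 to 0.10) and of -0.12 at day 14 (-0.32 to 0.07).

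Xrcc6 guides differed by position. Guide 1 had 1530 and 1606 CPM in the irradiated libraries, 1506 and 1520 in the day 14 libraries, and 1347 and 1415 in the day 0 libraries. All 4 later values lay above both day 0 values, as for 7.68% of the 1849 guides, and the log2 change was 0.18 in irradiated cells against day 0 (interval 0.05 to 0.31, edgeR adjusted p 0.791) and 0.13 at day 14 (0.00 to 0.26, adjusted p 0.648). Guide 2 had changes of -0.05 and -0.06. Guides 3 and 4 had changes of 0.42 and 0.29 in irradiated cells and of 0.34 and 0.35 at day 14. Without both incomplete libraries those in irradiated cells were 0.28 and 0.25, and that of guide 1 was 0.15. When the 264 low guides were scaled as a set of their own, those of irradiated cells became 0.07 for guide 3 and -0.05 for guide 4, and those of day 14 became 0.01 and 0.01. That scaling assumes that the low set did not change on balance.

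For Aplf, guides 2, 3 and 4 had values below 0 against day 0 in irradiated cells and at day 14, and guide 1 above 0, in a range of -0.18 to 0.09. For Cyren the range was -0.18 to 0.08. Between irradiated and day 14 cells the 16 guides ran from -0.14 (Cyren guide 1, interval -0.28 to 0.00) to 0.16 (Xrcc5 guide 3, -0.51 to 0.83). No gene had all 4 guides on the same side of 0 in any of the 3 comparisons.

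**Figure D3:**
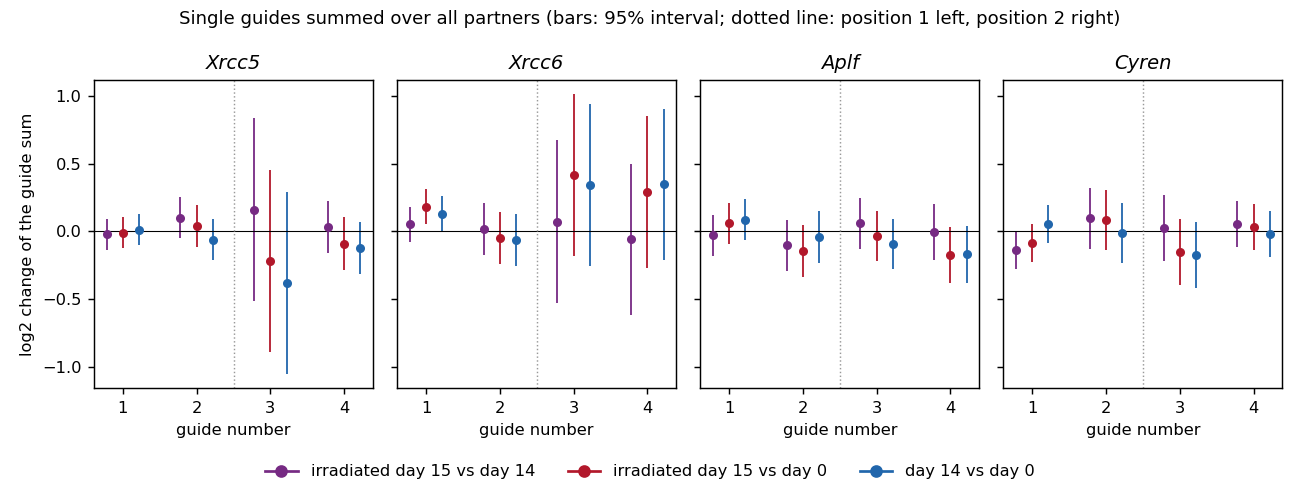
Log2 change of each guide, summed over its partners (points), with its 95% interval (bars), for irradiated day 15 against day 14, irradiated day 15 against day 0 and day 14 against day 0. Guides 1 and 2 stand left of the dotted line (position 1) and 3 and 4 right of it (position 2); the widest intervals are those of guide 3 of Xrcc5 and guides 3 and 4 of Xrcc6, and the interval of Xrcc6 guide 1 in irradiated cells against day 0, from 0.05 to 0.31, lies above 0.

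The genes whose summed level over the 6 libraries was most like that of each of the 4 were found by Pearson's correlation of log2 values, as a description over 6 libraries. For Xrcc6 they were Uvssa, Ascc3 and Bivm (r from 0.997 to 0.999), and all 3 have position 2 guides in the low set of day 0 replicate 1. For Xrcc5 they were Ino80d, Zmpste24 and Cdk2 (0.935 to 0.975), for Aplf Nipbl, Mad2l2 and Mcm3 (0.973 to 0.991), and for Cyren Inip, Fh1 and Klhl15 (0.988 to 0.993), with none of these in the low set. The points share the depth and the constructs missing from each library.

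Of 12 further genes of end joining, 11 were measured, and Prkdc, the kinase that Ku recruits, was not analysed here. Of these 11 single knockouts, 0 passed the threshold in either direction in the 3 comparisons. Their median log2 change was 0.03 in irradiated cells against day 14 (-0.08 over all genes), 0.04 in irradiated cells against day 0 (0.01 over all genes) and -0.04 at day 14 against day 0 (0.06 over all genes). Lig4, the ligase that seals the break, had -0.13 at day 14 (SE 0.19), its partner Xrcc4 0.05 (SE 0.18), and Nhej1 and Paxx, which bridge the ends, 0.01 (SE 0.16) and 0.34 (SE 0.20). Polm, a polymerase that fills gaps at the ends, had 0.63 (SE 0.29), larger than the 0.51 of Xrcc6 and with the same edgeR adjusted p of 0.817. In the sums over partners Xrcc4 and Wrn, a helicase and nuclease that binds Ku, had 0.15 and 0.25 in irradiated cells against day 0, and 0.03 and 0.14 without day 0 replicate 1. Like Xrcc6, these 2 genes have position 2 guides in the low set, and the other 9 of the 11 do not.

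The screen was built to find pairs of genes whose joint loss differs from the sum of the single losses. The interaction of a pair is the log2 change of its reads beyond what both genes' own changes in each library add up to. For the 4 genes, none of the 6 pairs among themselves and none of their pairs with 455 other genes passed the threshold. Over all 105111 gene pairs, 0% were called for irradiated cells against day 14, 0% for irradiated cells against day 0 and 0% at day 14 against day 0. At an unadjusted p below 0.05 the edgeR test gave 876, 372 and 452 pairs, where 5256 are expected from that threshold by itself. The median half-width of the 95% interval for the pairs of the 4 genes was between 1.15 and 1.28 on the log2 scale. Only interactions of more than about that size could therefore have had an unadjusted interval apart from 0 for a typical pair. A call after adjustment over 105111 pairs needs more: Fan1 with Xrcc6, at 1.89 in irradiated against day 14 cells, was not called.

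Xrcc5 with Xrcc6, the pair that would remove both subunits of Ku, was read from 8 constructs. Together they had 12.6 and 11.7 CPM in the irradiated libraries, 7.23 and 12.0 in the day 14 libraries, and 8.89 and 13.1 in the day 0 libraries. The groups overlapped. The interaction was 0.04 for irradiated cells against day 0 (interval -0.81 to 0.90) and -0.25 at day 14 (-1.11 to 0.60). The most common construct was Xrcc5_sg1 with Xrcc6_sg4, with 61.5 and 83.3% of the reads of the pair in the irradiated libraries and 44.4 and 43.6% in the day 0 libraries. It had 555 and 846 reads in the irradiated libraries, 448 and 426 in the day 14 libraries, and 333 and 495 in the day 0 libraries. Read counts of constructs here and below are not scaled to library size. The day 14 libraries had the fewest reads, 61962789 and 61185707, against 84399152 and 86542435 on day 0. The raw counts of this construct therefore do not rank day 14 against day 0. In day 14 replicate 1 this construct held all reads of the pair, and the other 7 constructs had none. Xrcc6_sg2 with Xrcc5_sg4 was the rarest, with 0 reads in all 4 later libraries, against 8 and 6 on day 0. Single constructs were not tested.

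Cyren with Xrcc6 had the largest interaction of the 6 pairs between irradiated and day 14 cells, not past the threshold. Its 8 constructs had 9.28 and 11.4 CPM in the irradiated libraries, 4.12 and 7.00 in the day 14 libraries, and 9.12 and 8.12 in the day 0 libraries. Both day 14 values lay below the other 4, an order found in 4.68% of all gene pairs. The pair is singled out for its large interaction, so the order is a description. Set against the additive value, the log2 ratio was -0.17 and 0.21 in the irradiated libraries, -1.19 and -0.58 in the day 14 libraries, and 0.05 and -0.33 in the day 0 libraries. The interaction was 0.89 for irradiated against day 14 cells (interval -0.18 to 1.95) and -0.72 at day 14 against day 0 (-1.79 to 0.34), with edgeR adjusted p of 1.0 and 0.97. Without irradiated replicate 2 and day 14 replicate 1 these interactions were 0.41 and -0.45.

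Aplf with Cyren gave -0.81 at day 14 against day 0 (interval -2.26 to 0.64) and 0.78 in irradiated against day 14 cells (-0.67 to 2.23). In day 14 replicate 1, 1 of its 8 constructs held 99.3% of the reads, and without that library and irradiated replicate 2 the interactions were -0.37 and -0.25. Aplf with Xrcc5 and Aplf with Xrcc6 gave -0.54 (-1.62 to 0.53) and -0.48 (-1.78 to 0.81) in irradiated cells against day 0, and -0.19 and 0.02 without those libraries. Cyren with Xrcc5 gave 0.15 (-0.67 to 0.97). In irradiated replicate 2 the 2 Aplf pairs with a Ku subunit were at log2 ratios of -0.56 and -1.19 to the additive value, against 0.26 and 0.08 in irradiated replicate 1.

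**Figure D4:**
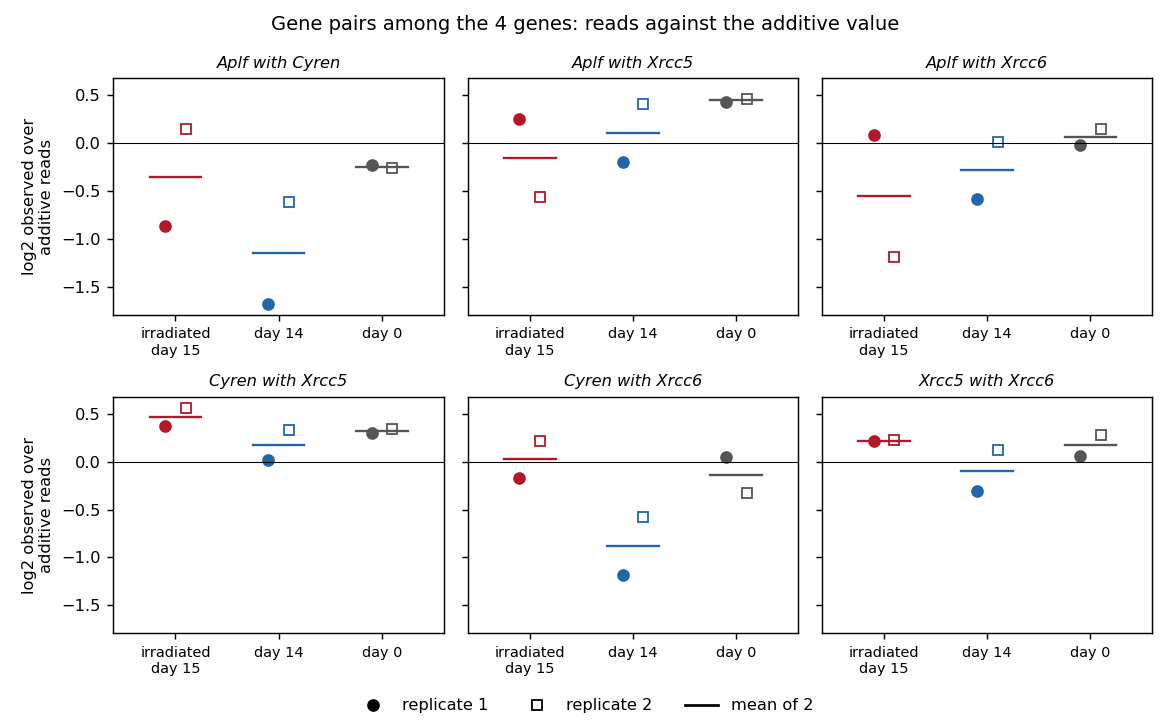
Log2 ratio of observed reads to the additive value of both genes (vertical axis) for the 6 gene pairs, in the irradiated day 15, day 14 and day 0 libraries. Filled circles are replicate 1, open squares replicate 2 and lines the mean of 2; the day 14 points of Cyren with Xrcc6 lie at -1.19 and -0.58, below its other points, and the replicates of Aplf with Cyren lie further apart in irradiated and day 14 cells than the means of those groups do.

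The additive values were fitted as medians over partners, which places the median interaction of each gene near 0. Over 455 partners it lay between -0.03 and 0.06 for the 4 genes and 3 comparisons. The share of partners with an unadjusted p below 0.05 was 0.22 to 1.32%, against 0.354 to 0.833% over all pairs. Partners of smallest p for the Ku subunits in irradiated cells against day 0 were Ino80b with Xrcc5 (1.61, interval 0.08 to 3.14), Rad54b with Xrcc5 (-0.92, -1.80 to -0.04), Gen1 with Xrcc6 (0.87, 0.18 to 1.55) and Cul4b with Xrcc6 (1.20, 0.02 to 2.39). With both incomplete libraries left out, these interactions were 1.53, -1.12, 0.74 and 0.64 in the same order. Of the 6 constructs of Ino80b with Xrcc5, 1 held all reads of the pair in irradiated replicate 2 and in day 14 replicate 1. Ino80b is a subunit of the INO80 chromatin remodeller, Rad54b a helicase of homologous recombination, Gen1 a nuclease that resolves crossed DNA strands, and Cul4b the scaffold of a ubiquitin ligase. All 4 had an edgeR adjusted p of 1.0.

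Gen1 with Xrcc6 had 24.8 and 28.0 CPM in the irradiated libraries, 16.3 and 18.1 in the day 14 libraries, and 11.4 and 15.4 in the day 0 libraries. The 3 groups did not overlap, in an order found in 0.467% of all gene pairs, and the pair is named here for its small p, so the order is a description. Its largest construct was Gen1_sg1 with Xrcc6_sg4, a guide of the set low in day 0 replicate 1. The other constructs together had 995 and 1671 reads in the irradiated libraries. They had 524 and 801 in the day 14 libraries and 684 and 951 in the day 0 libraries, so that day 14 and day 0 overlapped. At day 14 against day 0 the smallest p for Xrcc5 were with Stub1 (1.81, 0.16 to 3.46) and Tonsl (2.01, -0.05 to 4.06), and for Xrcc6 with Paxip1 (1.10, 0.12 to 2.08) and Dclre1b (1.45, 0.07 to 2.83). Without both incomplete libraries these were 0.48 for Stub1, -0.05 for Tonsl, 0.61 for Paxip1 and 0.35 for Dclre1b. For Tonsl the construct Tonsl_sg2 with Xrcc5_sg4 had 45 and 131 reads in the irradiated libraries, 1121 and 22 in the day 14 libraries, and 30 and 17 in the day 0 libraries. In irradiated against day 14 cells they were Uvrag (-1.70, -3.06 to -0.33) and Wdhd1 (-1.53, -2.84 to -0.22) for Xrcc5, and Wdr48 (-1.66, -3.07 to -0.25) and Fan1 (1.89, 0.24 to 3.53) for Xrcc6. Without both incomplete libraries these were -1.06, -1.11, -0.47 and 0.55 in the same order. The smallest edgeR adjusted p of these pairs, with all 6 libraries, was 0.97.

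For Cyren the smallest p at day 14 against day 0 was with Shld2, a subunit of shieldin, which protects broken ends from resection. The pair had 17.4 and 13.2 CPM in the irradiated libraries, 19.0 and 23.3 in the day 14 libraries, and 8.35 and 12.6 in the day 0 libraries. Both day 14 values were above all others, as in 3.82% of all gene pairs. The pair is named for its small p at day 14, so this order is a description. The interaction was 1.21 (interval 0.33 to 2.1, edgeR adjusted p 0.97). Of its 8 constructs, Shld2_sg2 with Cyren_sg3 held 64.4% of the reads of the pair in day 14 replicate 2 and 20.3 and 40.7% in the day 0 libraries. The next partner was the helicase Blm (1.05, -0.07 to 2.17). In irradiated cells against day 0 the Cyren partners were Cenps (0.84, 0.02 to 1.65) and Xpc (1.33, 0.03 to 2.62), and against day 14 they were Smg1 (-1.64, -2.96 to -0.32) and Rad21 (1.33, 0.17 to 2.49). Leaving out both incomplete libraries gave interactions of 0.71 for Blm, 0.48 for Cenps, 0.31 for Xpc, -0.90 for Smg1 and 1.02 for Rad21.

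For Aplf the pair with Bccip, a partner protein of BRCA2, had 11.9 and 8.94 CPM in the irradiated libraries, 7.83 and 9.97 in the day 14 libraries, and 6.60 and 5.45 in the day 0 libraries. The later values all lay above day 0, as in 4.37% of all gene pairs. This pair too is named for its small p, so that order is a description. The interaction was 1.18 in irradiated cells against day 0 (interval 0.27 to 2.08, edgeR adjusted p 1.0). The construct Bccip_sg2 with Aplf_sg4 had 539 and 278 reads in the irradiated libraries, 1 and 306 in the day 14 libraries, and 63 and 116 in the day 0 libraries. The other 5 constructs together had 309 and 496 reads in the irradiated libraries, 484 and 304 in the day 14 libraries, and 494 and 356 in the day 0 libraries, so that their groups overlapped. Shprh followed (1.05, 0.01 to 2.09). At day 14 the pair with Mnat1 had an interaction of 1.78 (0.02 to 3.53), and in irradiated against day 14 cells the smallest p for Aplf were with Actr2 (-1.58, -2.91 to -0.24) and Helq (0.92, 0.03 to 1.82). Leaving out both incomplete libraries gave interactions of 0.44 for Shprh, 0.33 for Mnat1, -0.38 for Actr2 and 0.37 for Helq.

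Leaving out irradiated replicate 2 and day 14 replicate 1, the libraries with the most unread constructs, changed the number of calls. The later groups are then 1 library each, assumed to vary as the 2 day 0 libraries do. In that edgeR fit 0.205% of all gene pairs were called for irradiated cells against day 14, 1.21% for irradiated cells against day 0 and 0.16% for day 14 against day 0. Of the 1826 pairs with 1 or 2 of the 4 genes it called 0.110, 1.04 and 0.164%, that is 2, 19 and 3 pairs, shares near those over all pairs. Of the pairs named above, 5 were among them and the others were not: Cyren with Shld2 (1.23, edgeR adjusted p 8.2e-06), Aplf with Bccip (1.18, 0.00113), Ino80b with Xrcc5 (1.53, 0.00139), Rad54b with Xrcc5 (-1.12, 0.00141) and Gen1 with Xrcc6 (0.74, 0.0185).

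**Figure D5:**
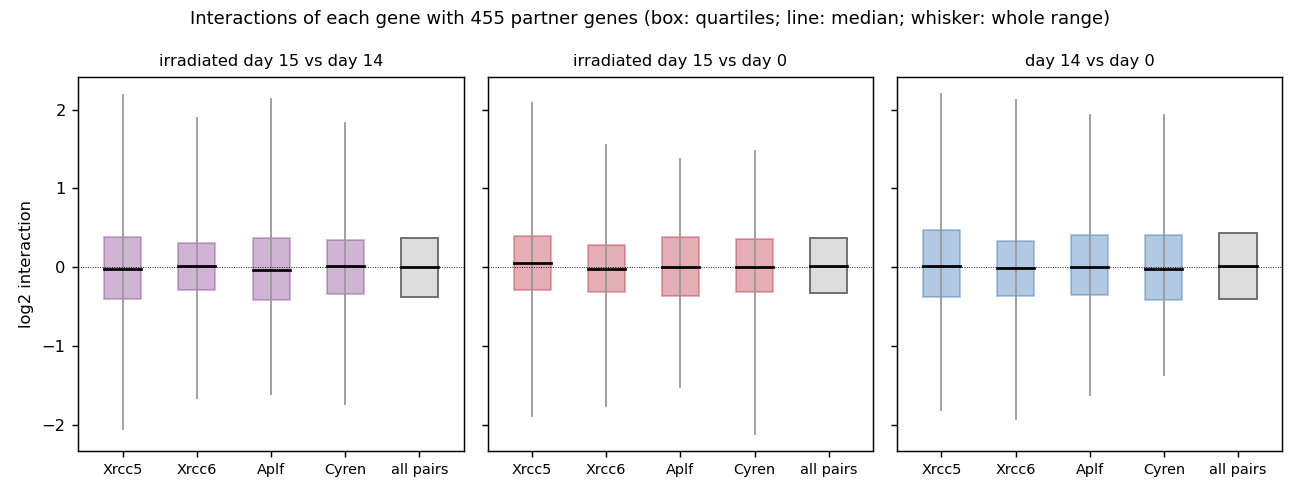
Log2 interaction (vertical axis) of each of the 4 genes with 455 partner genes, and of all gene pairs, for irradiated day 15 against day 14, irradiated day 15 against day 0 and day 14 against day 0. Boxes span the quartiles, black lines are medians and whiskers the whole range (not drawn for all pairs); the medians of the 4 genes, which the additive fit places near 0, lie between -0.03 and 0.06.

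With partners grouped by pathway, 0 interactions of the 4 genes passed the threshold in any list. Among the 11 end joining partners, the median interaction in irradiated cells against day 0 was -0.10 for Xrcc5, 0.05 for Xrcc6, 0.29 for Aplf and -0.19 for Cyren, against 0.06, -0.03, 0.01 and 0.01 over all 455 partners of each. Among 15 homologous recombination partners it was 0.06, 0.03, -0.40 and 0.01 in the same order of genes. Of those 15 values, 7, 7, 11 and 7 were below 0, and of the 11 end joining values 6, 5, 2 and 7. Over all 455 partners, 45.7, 51.9, 49.0 and 49.0% were below 0. The 2 lists thus leaned to opposite sides for Aplf. Such counts are not given for the other lists, and no list was tested as a set. Among 11 partners of the 53BP1 and shieldin pathway, which keeps breaks available for end joining, it was 0.20, -0.20, 0.22 and 0.13. Among 6 genes of poly(ADP-ribose) metabolism, the polymer that APLF binds, the Aplf median was 0.01. In the lists of alternative end joining (7 genes), end resection (7) and damage kinases (4 of 5 measured), the medians of the 4 genes in that comparison ran from -0.18 to 0.25.

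Constructs with 2 guides of the same gene, which cut it at a pair of sites, were read from 4 constructs per gene and were too few to show a change of moderate size. Of 457 genes tested, 0% were called for irradiated cells against day 14, 0% for irradiated cells against day 0 and 0% at day 14 against day 0. Xrcc5 had 104 and 1107 reads in the irradiated libraries, 810 and 185 in the day 14 libraries, and 385 and 259 in the day 0 libraries. In the irradiated and day 14 groups the replicates differed more than the group means did. In these groups 1 construct held 99.2% of the reads in irradiated replicate 2 and 95.7% in day 14 replicate 1. The log2 change was 1.04 in irradiated cells against day 0 (interval -1.76 to 3.84). It was 0.29 for Xrcc6 (-1.47 to 2.05), -0.36 for Aplf (-2.03 to 1.31) and 0.81 for Cyren (-1.06 to 2.69). In the fit without the incomplete libraries these were -1.34 for Xrcc5, 0.69 for Xrcc6, 0.19 for Aplf and -0.63 for Cyren, so the sign turned for 3 of the 4 genes.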

How the data were processed

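The deposited tables give raw read counts of each guide pair as whole numbers, per the file headers. The authors' processing notes name HISAT2 2.1.0 and build hg38 without their role, and for the assignment of reads to guides a method was not given in the sources used here. Pairs absent from a table were set to 0, and 2 columns that match no sample were not used. Total counts ran from 61185707 to 86587125 reads.

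Groups and replicate numbers came from the sample titles. Counts were summed per gene with non-targeting partners (scaled by constructs with 2 non-targeting guides), per gene over all other partner genes and per guide (TMM, for guides within each position), per gene pair, and per gene with 2 of its own guides (TMM). Sums needed a mean count of at least 20, guides of at least 2000. For gene pairs, additive effects of both genes per library (medians over partners on log2 CPM, prior count 2, 25 iterations) were the offset. Each of the 5 tables was fitted over all features and all 6 libraries with edgeR 4.0.16 (R 4.3.3), quasi-likelihood test, two-sided, with p adjusted by Benjamini-Hochberg and called below 0.05, in 3 comparisons. Intervals are 95% and not adjusted. The edgeR test was also run on counts simulated for each of the 5 tables. Apart from sums over partners, the scaling there differed from that of the fits. The simulated counts held no incomplete library, so those runs do not cover that trait of the data. The biological coefficient of variation was 0.145 for single knockouts, 0.0605 for sums over partners, 0.0984 for guides, 0.57 for gene pairs and 0.92 for constructs within 1 gene.

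The 4 genes, the gene lists and the tests were chosen with earlier results of these data known. All 4 genes and their guides are named. Partners named are, for each gene and comparison, the 2 pairs of smallest p, since none passed the threshold. A pair of Aplf at day 14 is not reported here. Alternatives were another scaling, DESeq2 1.42.0, another filter, each library left out, both incomplete libraries left out and the replicate number as a block. Fits per position, a scaling of 3 guide sets, crossed replicate numbers and sums without the largest construct were chosen after seeing the data.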

Additional observations from a re-analysis of the deposited data

How the results depend on the processing

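Of the 180 alternative values of the 4 single knockouts, 22 had the other sign than the value reported, 0 of them by 1 standard error or more, and of the 168 for sums over partners these numbers were 29 and 8. Those 8 were, for non-targeting scaling, Xrcc5 at -0.058 and Cyren at -0.065 in irradiated against day 14 cells and Xrcc5 at 0.042 and Aplf at 0.000245 at day 14, and, for position 1 guides alone, Aplf at 0.0017 and Cyren at 0.0019 in irradiated cells against day 0, and Aplf at 0.045 and Cyren at 0.031 at day 14. With 1 library left out at a time, Xrcc6 as a single knockout ran from 0.16 to 0.80 at day 14, and its sum over partners from 0.062 to 0.50 in irradiated cells against day 0 and from 0.037 to 0.47 at day 14. The cause was not tested. In the same way the calls of single knockouts at day 14 ran from 0 to 21. Those of sums over partners ran from 0 to 1 in irradiated against day 14 cells, from 0 to 158 in irradiated cells against day 0 and from 0 to 161 at day 14. Those of guides ran from 0 to 10, from 0 to 312 and from 0 to 309 in the same comparisons, and those of gene pairs from 0 to 1 in both comparisons of irradiated cells. Counts in the following sentences are for irradiated against day 14, irradiated against day 0, and day 14 against day 0, in that order. DESeq2 called 1, 2 and 1 genes in sums over partners and 25, 27 and 24 guides. Position 1 guides alone gave 10, 2 and 3 genes. Guides fitted per position gave 10, 1 and 2 calls, and scaled in 3 sets 12, 10 and 4. Scaling by library total left 0 guides for irradiated against day 14. Without both incomplete libraries there were 216, 1274 and 168 gene pairs, 0 guides in the first comparison, 3 single knockouts in the second and 1 in the third, and 1 gene by its own guide pairs in the second; the later groups are then 1 library each. With the replicate block, 1 guide was called in irradiated cells against day 0 and 1 gene pair in each comparison of irradiated cells, and no call of the 4 genes changed. Deviations of same-numbered libraries from their group means were compared by correlation over 459 genes. The correlations were -0.66 (irradiated and day 14), 0.14 (irradiated and day 0) and -0.12 (day 14 and day 0). The incomplete libraries have different numbers in the irradiated and day 14 groups, so these values cannot show whether the numbers pair the libraries. With the numbers of irradiated and day 14 libraries crossed, 0 single knockouts were called in each comparison.

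The median half-width of the 95% interval was 2.18 on the log2 scale for constructs with both guides in the same gene and 1.34 for gene pairs at day 14 against day 0, and each group rests on 2 libraries. Guide efficiency was not measured, and reads without molecular identifiers are not independent molecules.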
